A study of Mus musculus with 7 samples.

Results

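Aldo-keto reductases of the Akr1b and Akr1c groups were followed in the mouse adrenal gland from late gestation to adulthood. The 8 members were Akr1b3, Akr1b7, Akr1b8, Akr1b10, Akr1c6, Akr1c12, Akr1c13 and Akr1c14. They were chosen by gene symbol from the 35976 genes of the deposited table, with earlier results of these data known. All 8 were found there, and all 8 had a mean of at least 10 normalized counts, the minimum for testing, which 16720 genes reached.

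RNA of C57BL/6J mice, an inbred strain with no genetic modification or treatment given in the labels, was sequenced from 7 pools of adrenal glands. The earliest pool held 40 glands of the embryonic stage E18.5, shortly before birth, with sex not determined. Postnatal day 1 (P1) was covered by 16 male glands and by 22 female glands, each as 1 pool. At 2 weeks each sex gave 1 pool of 6 glands, and at 12 weeks 1 pool of 4 glands. Each group was therefore 1 library of whole glands, with no replicate and no SD for any level below. P-values came from 1 model over the 6 postnatal libraries, in which the only spread was how differently the male and female pools changed with age.

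Aldo-keto reductases use NADPH or NADH to reduce aldehydes and ketones to alcohols. In steroid-producing cells the cleavage of the cholesterol side chain releases a reactive aldehyde, isocaproaldehyde, and Akr1b7 is known for reducing it in the adrenal cortex, where the pituitary hormone ACTH maintains its expression. Akr1b3 is aldose reductase, which turns glucose into sorbitol in the polyol pathway, and several Akr1c enzymes act on steroid hormones as hydroxysteroid dehydrogenases.

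The members lie in a pair of gene clusters. On chromosome 6 of GRCm38, the build also called mm10, Akr1b3, Akr1b8, Akr1b10 and Akr1b7 fill 120.7 kb from 34302434 to 34423142, with Akr1b3 on the minus strand and the other three on the plus strand. Each of these genes has 10 exons and 948 coding bases in its main transcript. The Akr1c members share 537.5 kb of chromosome 13, from 4049011 to 4586541, with further Akr1c genes, and each has 969 coding bases. Akr1b7 and Akr1b10 were identical at 89.2% of aligned coding bases, Akr1b7 and Akr1b8 at 84.8%, and Akr1b3 and Akr1b7 at 72.4%. Akr1c12 and Akr1c13 were the closest pair, at 96.2%.

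Promoters of Akr1b7 and Akr1b10 are shown because each held the letters bound by NR5A1, the nuclear receptor that steroid-producing cells depend on. This pair was the most similar of the Akr1b cluster in coding bases. In promoters the order depended on the measure. Over the 250 bases before the start this pair was identical at 53.6% of the window, against 54.8% for Akr1b8 and Akr1b10. Of the aligned base pairs alone it was identical at 69.1%, against 63.4%. The windows run from 250 to 51 bases before the transcript start, 5′ to 3′ on the gene's strand, from RefSeq for GRCm38.p6. They cover chr6:34412112-34412311 for Akr1b7 and chr6:34383997-34384196 for Akr1b10, both on the plus strand. Capitals mark the NR5A1 recognition letters AAGGTCA, which here reads on the opposite strand.
Akr1b7: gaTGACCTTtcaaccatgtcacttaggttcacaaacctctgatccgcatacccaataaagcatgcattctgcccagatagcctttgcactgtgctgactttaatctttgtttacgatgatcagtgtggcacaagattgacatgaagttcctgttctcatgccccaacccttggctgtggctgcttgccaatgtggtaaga
Akr1b10: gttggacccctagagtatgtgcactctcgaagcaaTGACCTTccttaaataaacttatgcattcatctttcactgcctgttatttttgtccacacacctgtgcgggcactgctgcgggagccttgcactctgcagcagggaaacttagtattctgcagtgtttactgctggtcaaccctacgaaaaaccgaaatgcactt
The match began 248 bases before the start of Akr1b7 and 215 bases before that of Akr1b10. Over the 250 bases before the start, searched on both strands, 4.08% of 32851 RefSeq promoters held these letters. The windows of Akr1b8, Akr1c6, Akr1c12, Akr1c13 and Akr1c14 did not hold them. The cAMP response element TGACGTCA, held by 1.55% of promoters, and the core of the antioxidant response element, TGACNNNGC, held by 10.2%, matched in none of the 7 member windows searched; Akr1b3 had no window in the table. A match describes letters only and is not a measured binding site.

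The promoters of Akr1c12 and Akr1c13 are shown because this pair diverged in level with age although the windows are nearly the same. They are chr13:4279450-4279649 on the minus strand for Akr1c12 and chr13:4190937-4191136 on the plus strand for Akr1c13, in the same RefSeq build and orientation. Capitals mark bases that differ between the 2 windows or have no partner in their alignment.
Akr1c12: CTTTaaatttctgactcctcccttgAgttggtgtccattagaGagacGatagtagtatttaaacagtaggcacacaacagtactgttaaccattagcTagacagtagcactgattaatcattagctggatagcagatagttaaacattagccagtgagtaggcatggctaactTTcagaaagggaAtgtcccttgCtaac
Akr1c13: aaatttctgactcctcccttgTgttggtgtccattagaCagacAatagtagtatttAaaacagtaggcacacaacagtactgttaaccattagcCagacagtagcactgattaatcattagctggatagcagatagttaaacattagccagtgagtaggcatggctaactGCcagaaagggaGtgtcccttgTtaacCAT
Of 196 aligned base pairs 188 were identical, 95.9%, and 4 bases of each window had no partner.

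Libraries held between 15184210 and 23551289 reads in genes. The library labelled P1 female carried Y-linked transcripts at a median of 21.02% of their level in P1 male, against 0.0609% at 2 weeks and 0.0132% at 12 weeks, so values from it go against its label in part. Where leaving it out ends a member's call, the value without it is given. Leaving out a P1 or 2-week library leaves 1 at that age, and far fewer of all genes then pass from P1 to 2 weeks. A call lost in that way is not particular to a member. The cortical markers Star, Cyp11a1, Cyp21a1, Hsd3b1, Cyp11b1, Nr5a1 and Mc2r were all detected in every library, with a summed level from 247747 in P1 female to 1118688 in 12-week female. Transcripts of neighbouring or circulating sources moved with age too. The 7 liver markers summed to 251200 normalized counts before birth, then (male pool first) to 330151 and 235486 at P1, 13097 and 34199 at 2 weeks, and 452 and 403 at 12 weeks. In whole glands a smaller number of cells of a type and less RNA per cell cannot be told apart.

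Akr1b7 was by far the most abundant member, and its level was highest before birth. The E18.5 pool had 106039 normalized counts of Akr1b7. After birth, with the male pool named first as in all such pairs below, it had 44186 and 6535 at P1, 8610 and 7768 at 2 weeks, and 20940 and 14809 at 12 weeks. The order of the libraries was thus E18.5, P1 male, the 12-week pools, the 2-week pools and, lowest, P1 female, a range of 16.2-fold. At E18.5 it was the gene with the ninth highest count in the table, and in P1 female it ranked 342. It made up 94.8% of the members' summed counts at E18.5 and 59.0% in 2-week female. Per kilobase of its main transcript, Akr1b7 stood at 82778 normalized counts at E18.5, where Akr1b8 had 1873, Akr1b10 had 1137 and Akr1b3 had 872.

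**Figure D1:**
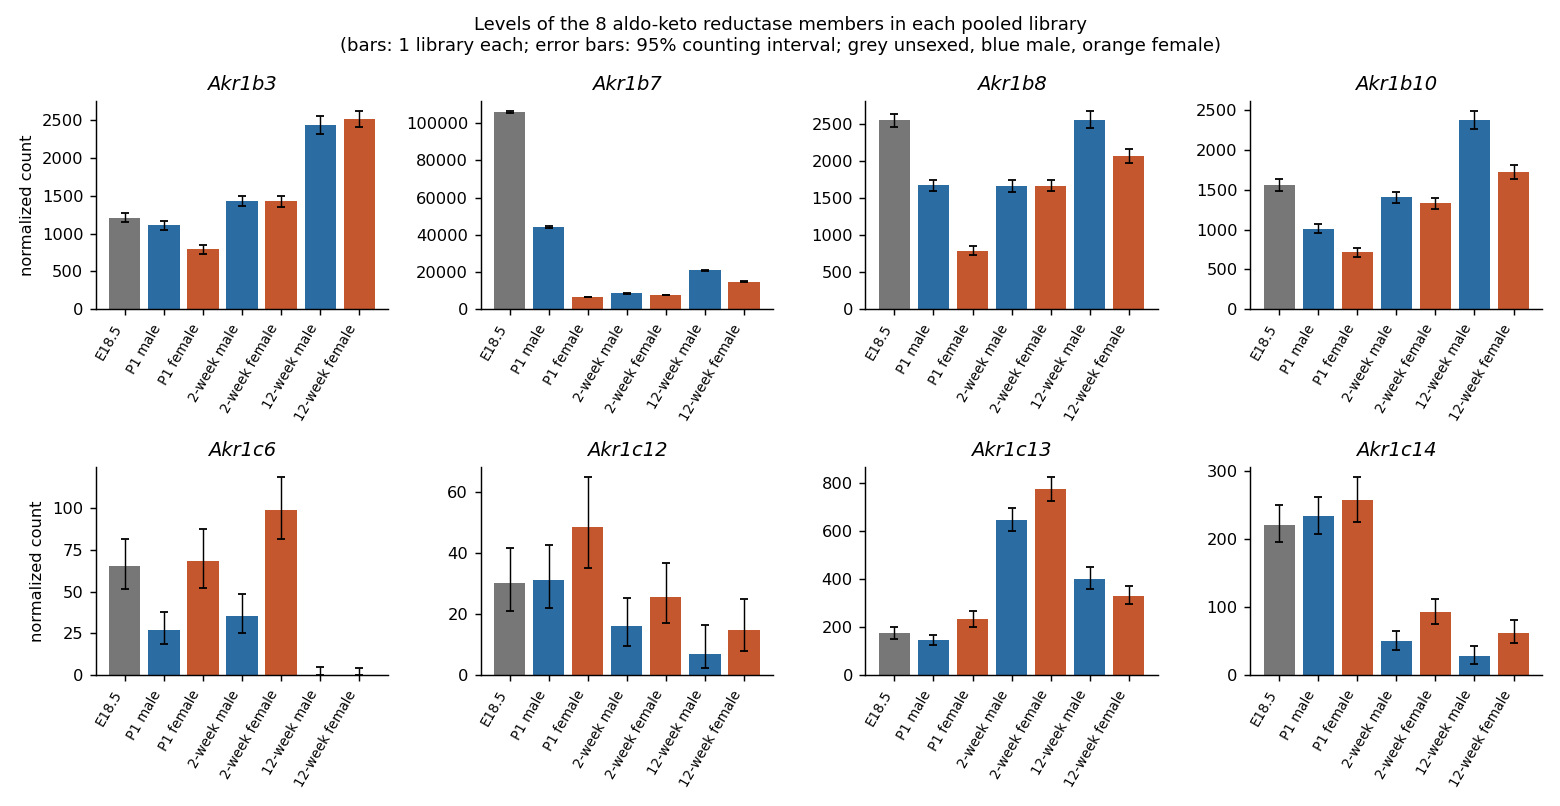
Normalized counts (vertical axis, linear, from 0, with its own scale in each panel) of the 8 members in the 7 libraries, 1 pool each, in grey for E18.5, blue for male and orange for female; error bars are 95% counting intervals. Akr1b7 had 106039 at E18.5 and 6535 in P1 female, Akr1c13 peaked at 775 in 2-week female, and Akr1c6 had 0 reads in both 12-week pools.

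Akr1b7 was lower in both P1 pools than before birth. Relative to E18.5 it was 2.40-fold lower in P1 male (95% exact counting interval 2.38 to 2.42) and 16.2-fold lower in P1 female (15.8 to 16.7). These ratios compare single libraries, and their intervals cover counting error only. On the log2 scale the difference was -1.26 to P1 male, against a median of -0.48 over 14 genes of cortical steroidogenesis with a range of -1.50 to -0.10. To P1 female it was -4.02, below the lowest of the 14 genes at -3.02, and their median was -0.83. Both differences share the E18.5 library.

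Akr1b7, Star and Cyp11a1 stood at different shares of their prenatal level later on. Akr1b7 stood at 8.12% of its E18.5 level in 2-week male and 7.33% in 2-week female, and at 19.7% and 14.0% in the 12-week pools. Star, which brings cholesterol into mitochondria, stood at 104.2% and 103.7% at 2 weeks and at 228.7% and 219.2% at 12 weeks. Cyp11a1, the side-chain cleavage enzyme, was picked after its values were seen, because its reaction releases the aldehyde that Akr1b7 reduces. It stood at 51.9% and 55.1% of E18.5 at 2 weeks and at 84.6% and 87.0% at 12 weeks. Other genes of the list of 14 went differently. From P1 to 12 weeks in males the lowest was Scarb1, at -1.53 on the log2 scale, with Akr1b7 at -1.08. In females the lowest was Cyp11b2, at 0.21, with Akr1b7 at 1.18. The ratio of Akr1b7 to Cyp11a1 counts, not corrected for length, was 1.43 at E18.5. It was 0.883 and 0.298 in the P1 pools, 0.224 and 0.190 in the 2-week pools and 0.333 and 0.229 in the 12-week pools, so every later pool lay below E18.5 and P1 male.

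**Figure D2:**
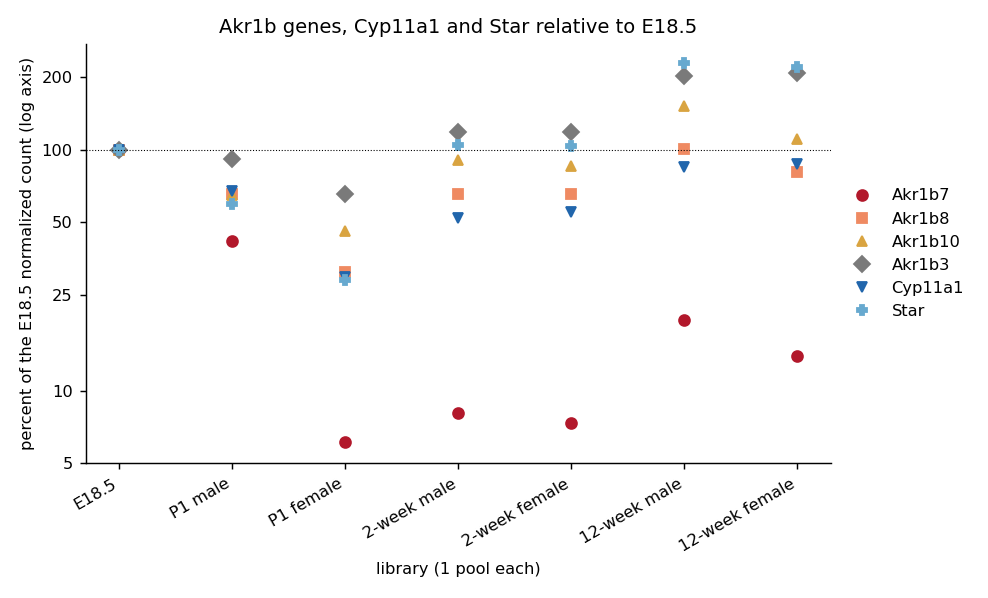
Level of the Akr1b genes, Cyp11a1 and Star in each library as a percentage of the E18.5 normalized count, on a log axis, with 1 point per gene and pool and the dotted line at 100. Akr1b7 lies lowest in every postnatal pool, at 6.16% in P1 female and 19.7% in 12-week male, while Star lies above 100 from 2 weeks on.

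Among the postnatal ages no change of Akr1b7 passed the test. From P1 to 2 weeks its log2 difference was -1.05 ± 0.57 (SE; adjusted p = 0.257), from 2 to 12 weeks 1.11 ± 0.57 (adjusted p = 0.236), and from P1 to 12 weeks 0.05 ± 0.57 (adjusted p = 0.9503). The differences from P1 depended on which P1 pool was used, while that from 2 to 12 weeks holds no P1 value. Its SE is shared with the others and includes the spread at P1. Male minus female, Akr1b7 differed by 2.76 on the log2 scale at P1, 0.15 at 2 weeks and 0.50 at 12 weeks. Without P1 male the P1 to 12-week difference was 1.27 (adjusted p = 0.0369), and without P1 female it was -1.17 (adjusted p = 0.0505). From P1 to 2 weeks it was 0.16 without P1 male. Leaving out 12-week male or 12-week female kept the value at -1.05 and moved its adjusted p to 0.0492 or 0.0495. From 2 to 12 weeks Akr1b7 was 2.43-fold higher in males (2.37 to 2.50) and 1.91-fold higher in females (1.86 to 1.96). On the log2 scale these changes were 1.28 and 0.93. Without 12-week male the estimate was 1.58, above the change in either sex. The model then took the sex difference from the P1 and 2-week pools alone.

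The other Akr1b genes were far lower than Akr1b7 and had higher counts at 12 weeks than at P1 in both sexes. Each was below its E18.5 level in both P1 pools. Akr1b8 stood at 100.4% of its E18.5 level in 12-week male and at 81.1% in 12-week female. Akr1b3 had 1209 normalized counts before birth, 1110 and 791 in the P1 pools, 1429 and 1425 in the 2-week pools and 2431 and 2514 in the 12-week pools. The 12-week pools were higher than all others, and at 2 and 12 weeks the sexes differed within counting error. From P1 to 12 weeks Akr1b3 rose by 1.40 ± 0.18 on the log2 scale (adjusted p = 0.00174), and the call held without each library in turn, with adjusted p up to 0.0245. From 2 to 12 weeks it rose by 0.79 ± 0.18 (adjusted p = 0.0317). That call was lost without 2-week male (0.289), 2-week female (0.161) or 12-week female (0.0717), with libraries scaled to equal totals (0.62, adjusted p = 0.0604), without a variance trend (0.0949) and with every detected gene tested (0.144). Of the windows of 50 bases in the main Akr1b3 transcript, 59.9% also occur in annotated pseudogene transcripts, so its count is uncertain.

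Akr1b8, an aldose reductase-like enzyme first known as a fibroblast growth factor-induced protein, had 2543 normalized counts before birth and 1671 and 790 in the P1 pools. It had 1659 and 1663 in the 2-week pools and 2554 and 2061 in the 12-week pools. Only P1 female stood apart, below every other library. Between P1 and 12 weeks it rose by 0.997 ± 0.26 (adjusted p = 0.0221), but without P1 female the difference was 0.53 (adjusted p = 0.118).

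Akr1b10, a further aldose reductase-like enzyme, had 1559 normalized counts before birth, 1008 and 714 in the P1 pools, 1405 and 1330 in the 2-week pools and 2373 and 1716 in the 12-week pools. The order ran from P1 through 2 weeks to 12 weeks in both sexes, with E18.5 between the later ages. Akr1b10 rose from P1 to 12 weeks by 1.25 ± 0.16 (adjusted p = 0.00196), and the call held without each library, with adjusted p up to 0.0380. From P1 to 2 weeks it rose by 0.69 ± 0.16 (adjusted p = 0.0366). This call was lost without P1 male (0.138), P1 female (0.200), 2-week male (0.138) or 2-week female (0.341).

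All 4 Akr1b members were lowest in P1 female, as were 17.5% of tested genes and 10 of the 14 steroidogenesis genes. Skeletal muscle markers, summed over 4 genes with none at 0, were highest in P1 female, at 66011 against 39656 in P1 male and 17154 at E18.5, and 19.6 to 3964 in the later pools. Their part in the low Akr1b values was not tested. Akr1b7 was the only Akr1b gene highest at E18.5, where 13.4% of tested genes and 4 of the 14 steroidogenesis genes had their highest level.

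The Akr1c members were each below 1% of the Akr1b7 count at E18.5 and went in opposite directions with age. Akr1c13, a steroid and xenobiotic reductase, had 174 normalized counts before birth, 146 and 233 in the P1 pools, 648 and 775 in the 2-week pools, and 403 and 331 in the 12-week pools. The 2-week pools were the highest and the perinatal pools the lowest. Adipocyte markers, summed over 7 genes, were also highest at 2 weeks, at 42400 and 47003. Their sum was 2982 before birth, 2893 and 3055 at P1, and 34543 and 27096 at 12 weeks. Lep had 0 reads at E18.5 and in P1 male, and Cfd had 0 at E18.5. The part of these transcripts in the Akr1c13 values was not tested. From P1 to 2 weeks it rose by 1.94 ± 0.25 (adjusted p = 0.00622). The estimate kept its sign without each library, but the adjusted p was 0.0955 without P1 male, 0.0600 without P1 female, 0.0825 without 2-week male and 0.0598 without 2-week female. The difference from 2 to 12 weeks was -0.95 (adjusted p = 0.0507), with -0.68 in males and -1.22 in females. Without 12-week male the estimate was -1.33, beyond the change in either sex. The sex difference then came from the P1 and 2-week pools alone. The rise from P1 to 12 weeks was 0.98 ± 0.25 (adjusted p = 0.0219). It was lost without P1 male (0.159), 2-week male (0.0545), 2-week female (0.0540) or 12-week male (0.0928).

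Akr1c12, the near copy of Akr1c13, did not follow it. It had 30.2 normalized counts before birth, 31.1 and 48.6 in the P1 pools, 16.0 and 25.6 in the 2-week pools, and 6.99 and 14.7 in the 12-week pools, from 5 to 44 reads. In each sex it was highest at P1 and lowest at 12 weeks. Between P1 and 12 weeks it fell by 1.83 ± 0.41 (adjusted p = 0.0134), and the call was lost without P1 male (0.0745) or P1 female (0.0681). The ratio of Akr1c13 to Akr1c12 counts was 5.75 before birth and 4.68 and 4.80 in the P1 pools. It was 40.4 and 30.3 in the 2-week pools and 57.6 and 22.5 in the 12-week pools. Windows of 50 bases that occur in the other gene's transcript made up 28.6% of each transcript, and how reads matching both were counted is not given in the sources used here.

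Akr1c14, a hydroxysteroid dehydrogenase that reduces ketosteroids, had 222 normalized counts before birth, 234 and 257 in the P1 pools, 49.8 and 92.6 in the 2-week pools, and 28.0 and 62.2 in the 12-week pools. The perinatal pools were all above the later ones. Akr1c14 fell by 1.84 ± 0.32 from P1 to 2 weeks (adjusted p = 0.0145). That call was lost without P1 male (0.149), P1 female (0.0806), 2-week male (0.154) or 2-week female (0.0929). Between P1 and 12 weeks it fell by 2.53 ± 0.32 (adjusted p = 0.00175), a call that held without each library with adjusted p up to 0.0367.

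Akr1c6, a hydroxysteroid dehydrogenase known mainly from liver, had 65.5 normalized counts before birth, 27.0 and 68.4 in the P1 pools, 35.6 and 98.8 in the 2-week pools, and 0 reads in both 12-week pools. The male pool was the lower at P1 and at 2 weeks. A count of 0 allows up to 3 reads, or 4.19 normalized counts in 12-week male and 3.39 in 12-week female. Against that limit per library, Akr1c6 was at least 8.48-fold lower in 12-week than in 2-week males and at least 29.1-fold lower in females. With the counting error of both libraries included, the 95% exact interval reached down to 6.59-fold and 23.3-fold. The fall from 2 to 12 weeks passed the test (adjusted p = 0.00206), as did that from P1 to 12 weeks (adjusted p = 0.000756), and both held without each library. From P1 to 2 weeks the difference was 0.45.

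The 7 liver markers, all detected in every library, were called lower in each age comparison. Most of these calls from P1 to 2 weeks were lost without P1 male, P1 female or 2-week male, when far fewer of all genes passed as well. Albumin (Alb) had 165072 normalized counts at E18.5 and 157 in 12-week female. Akr1c6 and Akr1c12 had their lowest levels in the 12-week pools, where the liver markers were also lowest, and Akr1c14 had its lowest in 12-week male. Fibroblast and capsule markers, summed over 5 genes with none at 0, went the same way, from 77952 before birth and 99601 and 103683 in the P1 pools to 26009 and 29109 at 2 weeks and 13819 and 12271 at 12 weeks. Kidney markers summed to 9610 and 2765 in the P1 pools and to between 53.1 and 90.0 in the later ones, with Umod at 0 there, and skeletal muscle markers also were lowest in the 12-week pools, at 19.6 and 21.5. The part of any of these transcripts in the falls was not tested.

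**Figure D3:**
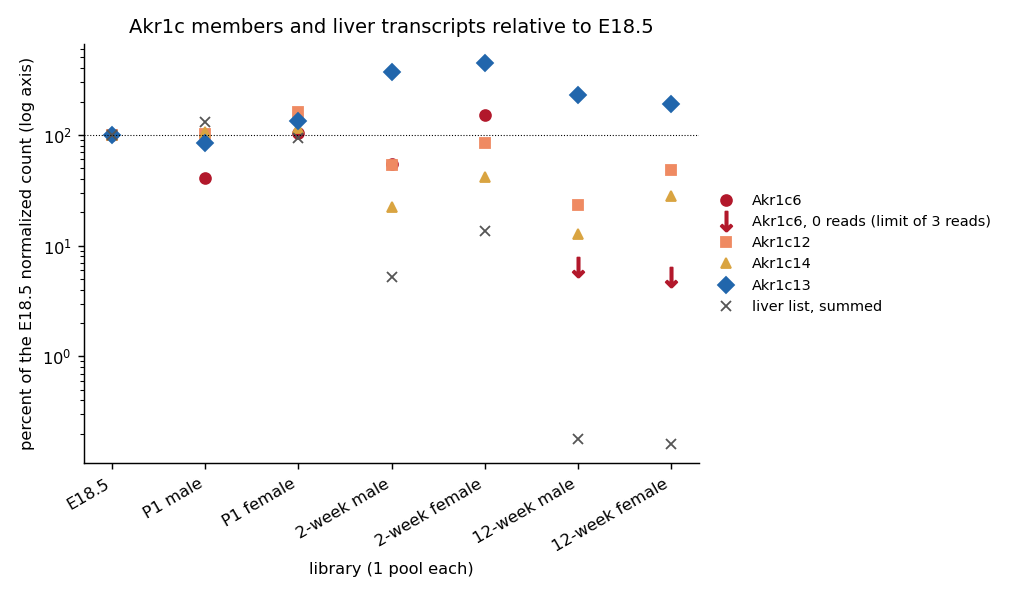
Akr1c members and the summed liver markers as a percentage of their E18.5 normalized count, on a log axis, with 1 point per pool; arrows stand at the limit of 3 reads where Akr1c6 had 0 reads. The liver sum lies at 0.180% and 0.160% in the 12-week pools, Akr1c14 at 12.6% and 28.1%, and Akr1c13 lies above 100 from 2 weeks on.

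Over all 8 members, 3 passed the threshold of adjusted p below 0.05 from P1 to 2 weeks, where 16.4% of tested genes did. Of these, 2 were higher (5.89% of genes) and 1 lower (10.5%). From 2 to 12 weeks Akr1b3 was called higher (5.4% of genes) and Akr1c6 lower (9.89%), 2 members against 15.3% of genes. From P1 to 12 weeks 7 of 8 were called, where 41.2% of genes were: 4 higher (17.6%) and 3 lower (23.5%), with Akr1b7 the exception. The members' median log2 difference was 0.49 from P1 to 2 weeks, -0.11 from 2 to 12 weeks and 0.52 from P1 to 12 weeks, against 0.00, -0.03 and -0.03 over all genes tested. Leaving out P1 male, P1 female, 2-week male or 2-week female leaves 1 library at that age. The members' P1 to 2-week calls were then lost. Far fewer of all genes passed as well, so this loss is not particular to the members. Without either 12-week library 5 were called. From P1 to 12 weeks 5 were called without P1 female (3 higher, 2 lower), 6 without P1 male, 2-week male, 2-week female or 12-week male, and 7 without 12-week female. Without a variance trend, or with every detected gene tested, 5 were called, since Akr1b8 and Akr1c13 did not pass. From 2 to 12 weeks 1 was called without 2-week male, 2-week female or 12-week female, and 4 without 12-week male. With edgeR on the recovered reads the counts were again 3, 2 and 7.

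**Figure D4:**
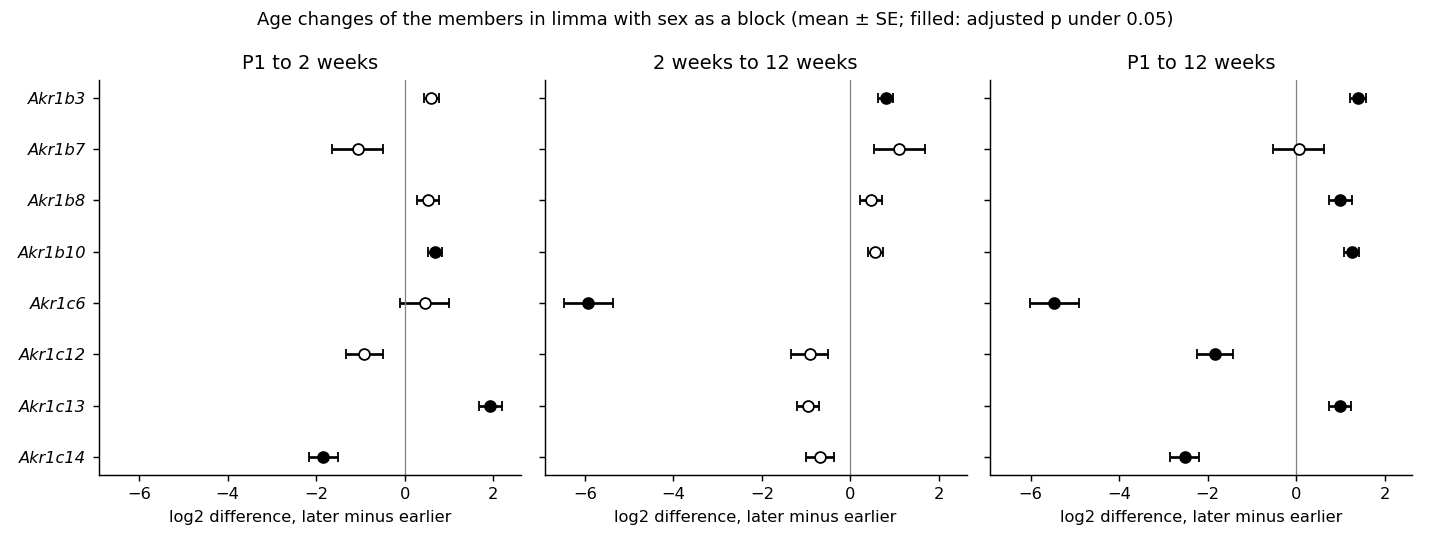
Log2 differences of the 8 members between postnatal ages (horizontal axis, later minus earlier) from limma over 6 libraries, shown as the estimate ± SE; filled points have an adjusted p below 0.05. Akr1b3 and Akr1b10 lie to the right from P1 to 12 weeks at 1.40 and 1.25, Akr1c14 lies to the left at -2.53, and Akr1b7 lies near 0 with an SE of 0.57.

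Between E18.5 and P1 male, 2 of 8 members were at least 2-fold apart, Akr1b7 and Akr1c6, both lower at P1 (8.4% of genes were at least 2-fold apart, 3.5% lower). Akr1c6 was 2.43-fold lower (1.60 to 3.76). To P1 female, 3 members were at least 2-fold lower, where 13.2% of genes were 2-fold apart and 6.12% lower. Beside Akr1b7 these were Akr1b8, 3.22-fold lower (2.97 to 3.50), and Akr1b10, 2.18-fold lower (1.99 to 2.39). In P1 male Akr1b8 was 1.52-fold and Akr1b10 1.55-fold lower than at E18.5, so both were below E18.5 in each P1 pool. Akr1c14 was 1.06-fold higher in P1 male (0.889 to 1.25) and 1.16-fold higher in P1 female (0.968 to 1.39), within counting error of E18.5.

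No member showed a shared sex difference over the 3 postnatal ages that passed the test. In limma 0 of 8 were called, 1 of all 16720 genes was (0.00598%), and 3 members had an unadjusted p under 0.05. In edgeR the counts were again 0 and 1, with 3 members under an unadjusted 0.05. The largest estimate was that of Akr1b7, 1.14 higher in males (adjusted p = 0.999), and it was 0.32 without P1 male or without P1 female.

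At P1, 3 members were at least 2-fold apart between the pools, where 6.78% of genes were. In the male pool Akr1b7 was 6.76-fold higher (6.58 to 6.95) and Akr1b8 2.114-fold higher (1.94 to 2.31), with 3.75% of genes at least 2-fold higher. Akr1c6 was 2.53-fold lower in P1 male (1.64 to 3.99), with 3.03% of genes at least 2-fold lower. Since the female pool held Y-linked transcripts, this is a difference between these libraries. Kidney markers, at 9610 against 2765, and exocrine pancreas markers, at 5257 against 69.5 with Pnlip at 0 in both, were also higher in P1 male. Their part in the difference was not tested.

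At 2 weeks the Akr1b genes differed little between the sexes. Akr1b7 was 1.11-fold higher in the male pool (1.08 to 1.14). The intervals for Akr1b3 (ratio 1.003, 0.935 to 1.08), Akr1b8 (0.998, 0.935 to 1.06) and Akr1b10 (1.06, 0.984 to 1.14) included equal levels. Akr1c6 alone was at least 2-fold apart, 2.78-fold lower in the male pool (1.92 to 4.09), where 4.24% of genes were 2-fold apart and 3.67% lower in the male pool. The liver sum was also lower in that pool, at 13097 against 34199, and its part was not tested.

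At 12 weeks Akr1b7 was 1.41-fold higher in males (1.38 to 1.45), Akr1b10 1.38-fold (1.29 to 1.48) and Akr1b8 1.24-fold (1.16 to 1.32). For Akr1b3 the ratio was 0.967 (0.908 to 1.03). Akr1c14 was 2.23-fold lower in males (1.31 to 3.92), the 1 member called 2-fold apart where 8.83% of genes were, 3.98% being lower in males. Calls between single libraries were made on the log2(normalized count + 1) scale. On it Akr1c12 stayed below 2-fold, at -0.98, although its plain ratio was 2.104-fold lower in males (0.704 to 7.54) from 5 and 13 reads. Akr1c14 and Akr1c12 had fewer counts in the male pool at each of the 3 ages. The male to female ratio of Akr1c14 came to 0.910 (0.763 to 1.09, which includes 1), 0.538 and 0.449 in order of age. For Akr1c12 it was 0.640, 0.626 and 0.475, and each of its intervals included 1.

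**Figure D5:**
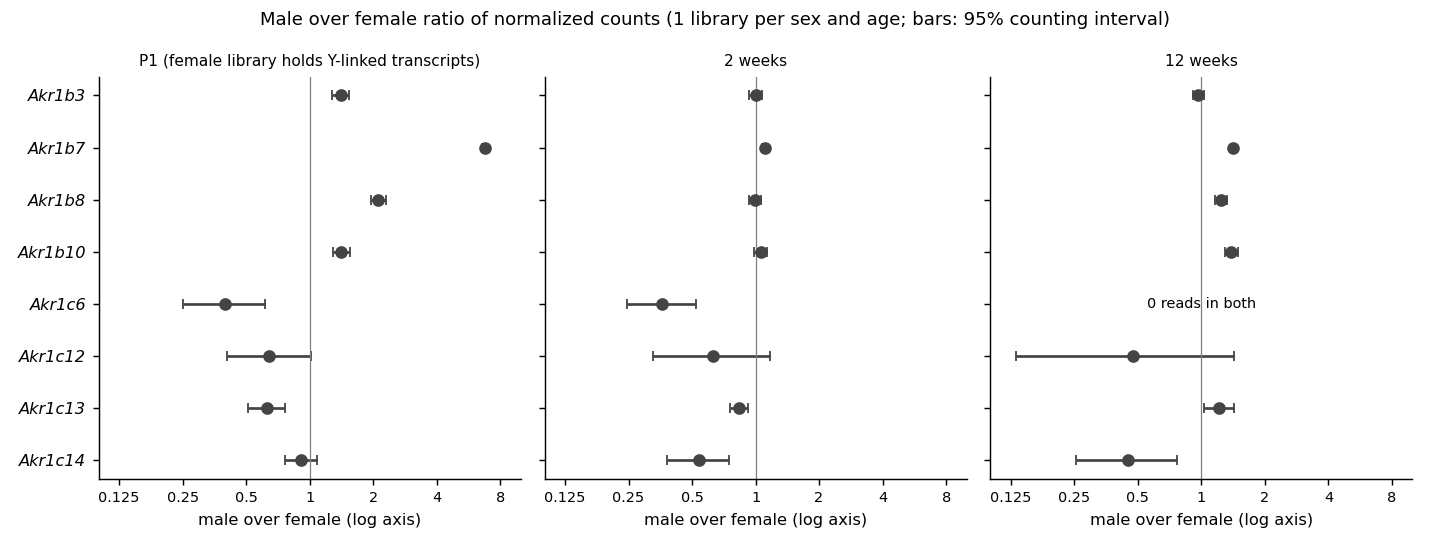
Ratio of male to female normalized counts for the 8 members at P1, 2 weeks and 12 weeks, on a log axis with a line at 1; bars are 95% exact counting intervals between 2 single libraries. Akr1b7 lies at 6.76 at P1, where the female library held Y-linked transcripts, and at 1.11 and 1.41 later, while Akr1c14 lies at 0.910, 0.538 and 0.449. The P1 bar of Akr1c14 includes 1.

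Of the further aldo-keto reductases, 12 were measured and 11 tested. From P1 to 12 weeks 3 were called higher and 1 lower, against 17.6% and 23.5% of genes, with a median of 0.18. Akr1cl had 5162 and 6329 normalized counts in the P1 pools, 11502 and 14266 in the 2-week pools and 23924 and 33509 in the 12-week pools, a rise of 2.31 ± 0.16 (adjusted p = 0.000229) that held without each library. Kcnab3, a potassium channel subunit of the aldo-keto reductase fold, rose by 2.14 ± 0.30 (adjusted p = 0.00243), and Akr1c19, a neighbour of Akr1c13, fell by 3.54 ± 0.48 (adjusted p = 0.00210). Both calls held without each library. The rise of Akr1e1 by 0.52 (adjusted p = 0.0482) was lost on leaving out any 1 library. Akr1a1, aldehyde reductase, ranged from 5191 to 10437 normalized counts and was called in no comparison.

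Akr1c18, between Akr1c14 and Akr1c13 on chromosome 13 and known as an enzyme of the X-zone, the transient inner cortex, peaked at 2 weeks. It had 283 normalized counts before birth, 811 and 827 in the P1 pools, 5346 and 26949 in the 2-week pools, and 2.80 (2 reads) and 774 in the 12-week pools. Akr1c6 and Akr1c13 likewise had their highest counts in 2-week female, while Akr1c12 and Akr1c14 were highest in P1 female.

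Among the pathways around the members, genes of steroidogenesis, aldehyde clearance and the oxidative stress response were called higher and none lower from P1 to 12 weeks, while 3 other lists held calls in both directions. Of 14 steroidogenesis genes 5 were called higher and 0 lower, with a median of 0.93. That and the medians below stand against -0.03 over all genes, and the counts against 17.6% and 23.5% of genes. Star rose by 2.43 ± 0.37 (adjusted p = 0.00326) and Hsd3b1 by 1.91 ± 0.32 (adjusted p = 0.00441), and both calls were lost without P1 male or P1 female, with adjusted p up to 0.152 and 0.175. Without P1 female 2 of the 14 were called higher and 1 lower, without P1 male 3 higher, and without 12-week male 10 higher. Cyp11b1 and Cyp21a1 did not pass, at 1.002 and 1.04. Of 18 genes of aldehyde clearance by other enzymes 6 were called higher and 0 lower (median 0.30), among them Aldh6a1 by 0.93 ± 0.15 (adjusted p = 0.00377), which held without each library. Without P1 female 3 were called, and without P1 male 4. Adh1, the most abundant of them, was at 0.53 ± 0.46 (adjusted p = 0.382).

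Of the 6 genes listed for the polyol pathway beside aldose reductase, 1 was called higher and 2 lower from P1 to 12 weeks (median 0.08). Sord, which oxidises sorbitol to fructose, ranged from 1055 to 1894 normalized counts and was at 0.42 ± 0.22 (adjusted p = 0.168) while Akr1b3 rose. Hk2, a hexokinase, rose by 1.33 ± 0.19 (adjusted p = 0.00265), a call that held without each library. Without P1 female 2 of the 6 were higher and 1 lower. Of 13 tested steroid hydrogenases 4 were higher and 4 lower (median 0.28), and 2 and 2 without P1 male or without P1 female. Hsd17b12, a hydroxysteroid dehydrogenase family member, rose by 0.97 ± 0.14 (adjusted p = 0.00254), which held without each library. Srd5a2, a steroid 5-alpha-reductase, had 140 and 135 normalized counts in the P1 pools and 34433 and 1471 in the 12-week pools, a rise of 5.69 ± 1.04 (adjusted p = 0.00640) that was lost without P1 male or P1 female, with adjusted p up to 0.114. Of 11 measured genes of prostaglandin F synthesis and transport, an activity reported for Akr1b7 and Akr1b3, 3 were higher and 3 lower (median 0.14), and 2 higher and 1 lower without P1 male or without P1 female. Abcc4, an exporter, rose by 1.08 ± 0.17 (adjusted p = 0.00375), and Slco2a1, the prostaglandin importer, fell by 1.67 ± 0.24 (adjusted p = 0.00247). Of 14 tested genes of the oxidative stress response 4 were higher and 0 lower (median 0.16). Among these was Nfe2l2, its main transcription factor, by 0.73 ± 0.16 (adjusted p = 0.0133), lost without P1 male (0.0940). Without P1 female 1 of the 14 was called, and without 12-week female, P1 male or either 2-week pool 2 were.

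Across the 7 libraries the members did not share 1 pattern. On log2 values Akr1b8 and Akr1b10 had a Pearson r of 0.90, Akr1b3 and Akr1b10 of 0.89, and Akr1c12 and Akr1c14 of 0.95, while Akr1b7 and its neighbour Akr1b10 had 0.28. These 7 points share age, pool makeup and depth, so the coefficients are descriptions. Among 12254 genes with a mean of at least 100, the 5 most like Akr1b7 were Zmat5 (r of 0.98), Slc23a2 (0.97), Edem2 (0.97), Dhcr7 (0.97) and Mms19 (0.96), and 41 genes reached 0.9. For Akr1b3 811 genes reached 0.9, led by Cyld at 0.99. The genes most like Akr1c13 were Acot11, Mlxipl, Decr1, Atp5h and Coq5, with r from 0.988 to 0.996. Those most like Akr1c14 were Tmprss6, Zfp174, Upk1b, Gm5424 and Specc1, with r from 0.982 to 0.996. Akr1b8 was led by Metap1d at 0.98 and Akr1b10 by Zfp930 at 0.99.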

How the data were processed

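The authors deposited 1 table of values per gene symbol for the 7 libraries. Per the submitters' processing notes CASAVA 1.8.2, HISAT2 2.1.0, HTSeq 0.9.1, DESeq2 2.11.40.6 and the build mm10 were used; the annotation and strand setting are not given in the sources used here. The deposited signal values were whole reads divided by 1 size factor per library: 100% of values came out whole within 0.01 reads, so read counts were recovered.

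Tests used limma 3.58.1 (trend, two-sided) on log2(normalized count + 1) over the 6 postnatal libraries with age and sex as terms, and Benjamini-Hochberg adjustment over 16720 genes with a mean of at least 10; that scale understates changes of low genes. edgeR 4.0.16 on the recovered reads, other pseudocounts, filters and scalings, and leaving out each library were alternatives. Nothing in the labels says that pools came from separate litters, so p-values measure only the spread between these pools. In simulations with 200 of 16720 genes changed by 2 (log2), 95.5% to 99% were recovered and 5.31% to 7.51% of calls were false. The changed genes all had a mean of at least 50, above Akr1c6 and Akr1c12, and every other gene was held constant. Far more genes were called in the age comparisons of the data, so these rates describe the simulated setting only.

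Single libraries were compared in pairs by their ratio with a 95% exact binomial (Clopper-Pearson) counting interval and called from 2-fold on the log2(normalized count + 1) scale. No molecular identifiers are named in the sources used here, so intervals and the limit of 3 reads cover counting error only. Gene positions and transcripts came from GENCODE M21.

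The members and lists were chosen with earlier results of these data known. All members and further aldo-keto reductases could be named; from other lists, the 4 genes with the highest mean, of which 1 is not reported here; for likeness, the 5 highest Pearson r.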

Additional observations from a re-analysis of the deposited data

Results flagged for a closer look

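For 2 members the single-library differences pointed in opposite directions in the sexes or at different ages; whether they differ was not tested, since each value compares a pair of single libraries. The log2 difference of Akr1b7 from P1 to 2 weeks was -2.36 in males and 0.25 in females. From P1 to 12 weeks the Akr1b7 difference was -1.08 in males and 1.18 in females, and the female values rest on the library labelled P1 female, which held Y-linked transcripts. Akr1c13 had male minus female differences of -0.67 in the P1 pools, -0.26 in the 2-week pools and 0.28 in the 12-week pools.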

How the results depend on the processing

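No paired analysis was possible because each group was 1 library and the labels give no replicate numbers. Of 440 alternative values of the members in the limma comparisons, 386 kept direction and side of the threshold, 34 lost the threshold, 11 gained it and 9 changed sign. Of 230 values from single libraries, 224 moved little and 6 more.

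With every detected gene tested, 0 genes and 0 members passed from P1 to 2 weeks, from 2 to 12 weeks and between the sexes (6431, 6036 and 783 genes at an unadjusted p under 0.05), since more genes with few reads enter the fit. Without a trend 1672, 1661 and 0 genes (638 unadjusted) passed, with 1 member from 2 to 12 weeks. Leaving out 1 library gave 2 to 4461 genes and 0 to 5 members from P1 to 2 weeks, 421 to 3035 genes and 1 to 4 members from 2 to 12 weeks, 3207 to 6271 genes and 5 to 7 members from P1 to 12 weeks and 0 to 51 between the sexes.

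Equal totals moved the median of all genes from 2 to 12 weeks to -0.20 and the calls from 903 higher and 1654 lower to 647 and 2515. The sign of Akr1b7 from P1 to 12 weeks changed with equal totals (-0.068) and edgeR (-0.15), and leaving out 1 library gave -1.17 (P1 female) to 1.27 (P1 male), with -0.43 without 12-week female. From P1 to 2 weeks Akr1b7 ran from -2.27 (without P1 female) to 0.16 (without P1 male); the cause was not tested. Between the sexes, leaving out a library gave -0.022 to 0.25 for Akr1b3 and -0.47 to 0.011 for Akr1c13, the near-zero values without P1 male or P1 female.

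Genes at least 2-fold apart numbered 878 with a pseudocount of 10, 3933 with no filter and 624 with a mean of at least 50 from E18.5 to P1 male (1 member with the last). To P1 female they were 5793 with no filter and 1204 at 50. Between the sexes in the same order they were 663, 4550 and 473 at P1, 320, 2331 and 325 at 2 weeks (0 members at 50), and 739, 5215 and 814 at 12 weeks. At 12 weeks 2 members were 2-fold apart with a pseudocount of 0.1 and 0 with 10. Depth limits Akr1c6 and Akr1c12, with at most 112 and 44 reads.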
